A study of Homo sapiens with 3 samples.

Results

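The genes described here are 10 transcription factors and hormone subunits that mark or build the trophoblast, read on arrays of 3 human embryonic stem (ES) cell lines kept undifferentiated. They are the transcription factors CDX2, ELF5, GCM1, TFAP2A, TFAP2C, GATA2, GATA3 and HAND1 and the hormone genes CGA and CGB3. Members were taken by name: every probe annotated to one of these genes was used, which gave 12 probes for 10 genes, of 47293 probes and 16225 named genes in all. Each gene had 1 probe except ELF5, with 3.

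The 3 lines, H9, BG03 and ES01, form 1 group of untreated cells, with 1 Illumina bead array per line. They are established lines derived from human embryos, and all were grown on irradiated mouse embryonic fibroblasts in medium with serum replacement and the growth factor FGF2, so no line was cultured without feeders. The study's design also holds mouse ES and epiblast stem cells, which were not analysed here. With 1 array per line there is no test between lines, and differences of line, culture and array cannot be told apart.

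The trophoblast is the outer lineage of the embryo and forms the epithelium of the placenta. In the mouse, TEAD4 and YAP act upstream of Cdx2 and Gata3 in the outer cells of the morula, and Cdx2, Eomes, Elf5 and Tfap2c maintain trophoblast stem cells. In the human placenta GATA2, GATA3, TFAP2A and TFAP2C act in trophoblast progenitors, GCM1 drives fusion into syncytiotrophoblast, and the syncytium secretes chorionic gonadotropin, a dimer of the alpha subunit from CGA and a beta subunit from the CGB genes. Human ES cells treated with BMP4 are known to switch on many of these genes, which makes their level in undifferentiated cultures a usual check for differentiated cells. Several members are also used elsewhere: GATA2 in blood, CDX2 in intestine, HAND1 in heart and extraembryonic mesoderm, TFAP2A in neural crest and TFAP2C in germ cells.

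Intensities below are in linear units after quantile normalization and are given in the order H9, BG03, ES01. A gene was called above background where its probe exceeded the 95th percentile of 215 olfactory receptor probes on the same array, which was 11.2, 12.6 and 13.3 units. A value below 0 means that the authors' background subtraction removed more than the probe's signal. The arrays held 2089034 to 2102778 beads and a median of 42 beads for each bead type. Bead codes are not linked to genes in the tables used here, so the error over beads is given for bead types at the same intensity rank as a member. Of 11 measured pluripotency markers 10 were above background in all lines, including POU5F1 at 269.6, 287 and 195, NANOG at 130.1, 123 and 127 and LIN28A at 5466, 5837 and 6489; the SOX2 probe was not (3.87, 5.03 and 3.90).

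Of the 10 trophoblast genes, 3 were above background, each in all 3 lines: TFAP2C, GATA3 and HAND1. The HAND1 values in H9 and ES01 were within 2 bead errors of the threshold. The other 7, CDX2, ELF5, GCM1, TFAP2A, GATA2, CGA and CGB3, were above background in none. The share of 30.0% compares with 59.8% of all 16225 genes above background in all 3 lines, with 67.8% above it in at least 1 line, and with 64.4%, 63.5% and 63.1% in H9, BG03 and ES01 taken singly. The members were chosen with results of these arrays known, so the lower share describes these 10 genes and was not tested.

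**Figure D1:**
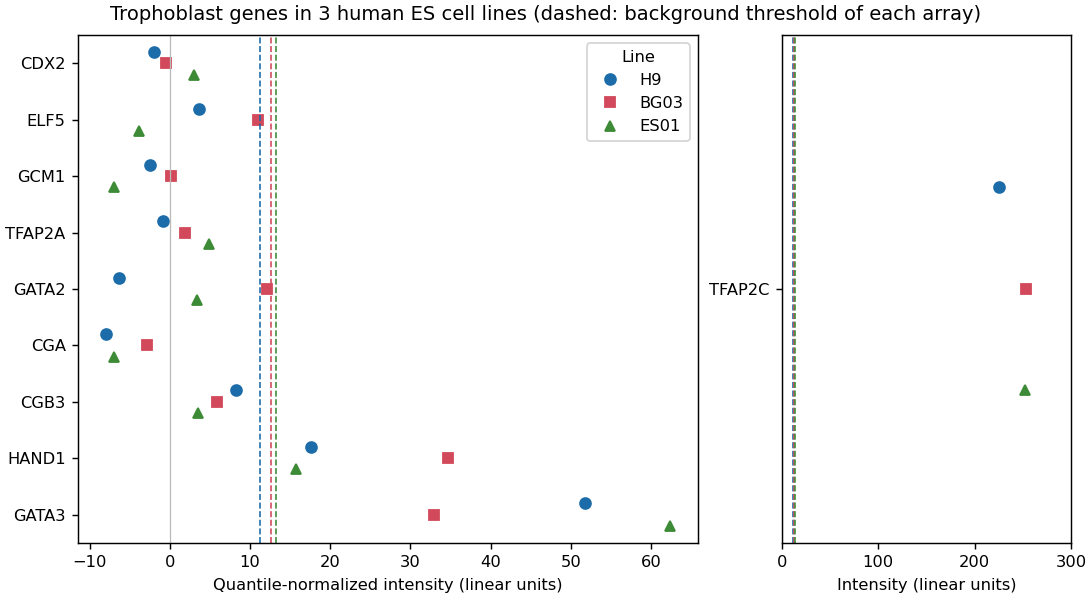
Quantile-normalized intensity (linear units) of each of the 10 genes in H9 (circles), BG03 (squares) and ES01 (triangles), 1 array per line; dashed lines are the background thresholds of 11.2, 12.6 and 13.3 units in the same colours. TFAP2C has its own axis on the right at 226 to 253 units, GATA3 and HAND1 lie past the thresholds in every line, and the other 7 genes lie under them.

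TFAP2C, the AP-2 gamma factor of trophoblast and germ cells, was the steadiest of the members above background. Its intensities were 226, 253 and 253 (log2 SD 0.10 over lines, n = 3). All 215 olfactory receptor probes lay below it on each array. The lowest line, H9, and the highest, BG03, differed by 0.17 on the log2 scale (1.12-fold). Bead types at the same rank had a median standard error over beads of 9.20, 9.53 and 9.86 units, and under same-median scaling ES01 was the lowest, at 218.6, so the lines have no settled order.

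GATA3, a zinc finger factor of the trophectoderm, was less even. It measured 51.8, 32.9 and 62.3 (log2 SD 0.47, n = 3), with 214, 212 and 214 of the 215 olfactory receptor probes below it. BG03 was the low line: H9 was 1.57-fold and ES01 1.89-fold above it, or 0.92 on the log2 scale for ES01 minus BG03. The error over beads at that rank was 4.43, 3.64 and 4.65 units, smaller than the gaps of BG03 to the other lines. No pair reached 2-fold. The ES01 and H9 values differed by 0.27 on the log2 scale, which became -0.03 when arrays were scaled to the same median, so those 2 lines have no settled order.

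HAND1, a basic helix-loop-helix factor of trophoblast giant cells, heart and extraembryonic mesoderm, was the most variable of the 3. It measured 17.7, 34.7 and 15.7 (log2 SD 0.62, n = 3). BG03 was the high line, 1.97-fold above H9 and 2.21-fold above ES01, while H9 and ES01 lay within 0.17 of each other on the log2 scale. The deposited value in ES01 exceeded its threshold by 2.41 units, less than the median bead error of 3.18 units at that rank, and the value in H9 exceeded it by 6.53 units with an error of 3.31. Both values were within 2 bead errors of the threshold, so the HAND1 calls in ES01 and H9 are not settled by these arrays; only the BG03 value, 22.6 units over, was farther from it. With the 99th percentile of the olfactory receptor probes as threshold (25.2, 30.8 and 21.4 units) HAND1 was above background in BG03 alone. The log2 difference between ES01 and BG03, -1.15 above, is then a bound of -0.70, since the ES01 value stands at that threshold.

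HAND1 in BG03 against ES01 was the 1 case of a member differing at least 2-fold: 0 members did between H9 and BG03 (background 3.24% of 11004 genes), 0 for ES01 against H9 (5.14%) and 1 for ES01 against BG03 (3.75%). Over the 3 members above background the median log2 difference was that of TFAP2C in each pair. It was 0.17 for BG03 minus H9, 0.16 for ES01 minus H9 and -0.004 for ES01 minus BG03. Over all 11004 genes the medians were 0.03, 0.01 and -0.01. GATA3 and HAND1 lay on either side of TFAP2C, at -0.65 and 0.98 for BG03 minus H9, so the 3 members had no common shift. The line with the most HAND1, BG03, was the line with the least GATA3. Over 3 lines this is a description of 3 arrays. The 3 genes closest to HAND1 in their pattern over the 3 lines, by the Euclidean distance of centred log2 values among 9694 genes above background in all lines, were TCEAL3 (192, 378 and 174, distance 0.02), APOO (508, 969 and 480, distance 0.10) and BEX4 (1481, 2649 and 1273, distance 0.10). With so many candidates and 3 points per gene, a close match need not mean a relation to HAND1, which was not tested.

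Markers of other cell types were read beside HAND1. The share above background in all lines was 18.2% for mesoderm and heart markers and 36.4% for fibroblast markers. Over all genes it was 59.8%. Of 11 measured mesoderm and heart markers 2 were above background in all lines, KDR and ISL1, and TBXT, MESP1 and TBX6 were in none (TBXT 4.43, -0.40 and 8.97). HAND2, the heart relative of HAND1, passed only in BG03, at 12.8 against a threshold of 12.6. The 4 mesoderm markers above background in any line were KDR, ISL1, PDGFRA and HAND2. Their summed intensity was 115.5, 104.9 and 104.6, with KDR the largest term (60.6, 44.4 and 47.9). Of 11 fibroblast markers 4 were above background in all lines and 9 in at least 1. Their summed intensity was 1193, 1231 and 1619, highest in ES01, and THY1 was the largest term in each line (752, 851 and 824). How far these human probes read RNA of the mouse feeders was not tested. LUM, the matrix proteoglycan lumican, was above background in BG03 alone (10.1, 48.9 and 10.1), whereas DCN and LOX were lowest there (DCN 30.5, -0.60 and 26.4; LOX 22.4, 9.17 and 28.0). COL3A1 was above background in no line. The part of feeder or mesodermal RNA in the HAND1 values was not tested.

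The remaining transcription factors lay in the range of the olfactory receptor probes. CDX2, the homeobox factor that specifies mouse trophectoderm, measured -1.97, -0.50 and 3.03, with 83, 112 and 145 of 215 olfactory receptor probes below it. GCM1, the factor of syncytial fusion, measured -2.43, 0.20 and -7.0, with 78, 131 and 26 below it. TFAP2A, the AP-2 alpha factor, measured -0.87, 1.93 and 4.83, with 101, 146 and 163 below it. In every line these 3 probes lay within the olfactory receptor values, where no order between lines is given.

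GATA2 and ELF5 came closer to the threshold in BG03. GATA2, a partner of GATA3 in trophoblast and a blood stem cell factor, measured -6.33, 12.1 and 3.37, so that 21, 203 and 150 olfactory receptor probes lay below it. In BG03 the deposited GATA2 value was 0.47 units under the threshold, with a bead error of 2.90 units. ELF5, an ETS factor of trophoblast stem cells, measured 3.70, 11.0 and -3.83 at its brightest probe, which in BG03 was 1.47 units under the threshold with a bead error of 2.89. The other ELF5 probes measured -3.60, 1.73 and -6.13, and -7.10, -6.43 and -4.93; the first of these was also highest in BG03, at a value well inside the olfactory receptor range, and the other was not. Over 27 values of these 7 genes (9 probes, 3 lines), 3 were within 2 bead errors of the threshold: GATA2 and ELF5 in BG03 and CGB3 in H9. Those 3 calls, like those of HAND1 in H9 and ES01, are not settled by these arrays. Whether each probe reads its transcript was not checked, so none of the 7 RNAs is shown to be absent.

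The hormone subunit genes were not above background. CGA, the alpha subunit shared by chorionic gonadotropin and the pituitary glycoprotein hormones, measured -7.90, -2.90 and -7.0, with 12, 76 and 26 of 215 olfactory receptor probes below it, toward the lower end of that range in all lines. CGB3, a gonadotropin beta gene, measured 8.23, 5.93 and 3.47, with 196, 180 and 150 below it. CGB3 was thus in the upper part of the range, closest to the threshold in H9, where the gap was 3.17 units and the bead error 2.78.

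CGB3 is one of several CGB genes that lie next to each other, some near-identical to it, and a probe of one copy may read others. CGB5 measured 2.77, 7.90 and 0.00, CGB8 -4.60, -4.63 and 0.70 and CGB7 -6.03, 0.10 and -6.73, with no line above background. CGB1 stood apart. Its probe was above background in all lines, at 45.6, 54.4 and 45.1 (log2 SD 0.15, n = 3), with 214 olfactory receptor probes below it on every array. CGB2, its closest relative, measured 8.43, 12.8 and 4.93 and passed the threshold of 12.6 in BG03 only. Of the beta subunit genes of the pituitary hormones, LHB and TSHB were above background in no line and FSHB just passed in H9 (12.0, 8.83 and 0.80). The CGB1 probe was thus above background in all lines, and CGA and the CGB3, CGB5, CGB7 and CGB8 probes were in none. The CGB3 call in H9 is not settled, and bead error was not read for CGB5, CGB7 and CGB8. Which transcript the CGB1 probe reads, and whether CGB1 or CGB2 makes a hormone subunit, was not checked.

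**Figure D2:**
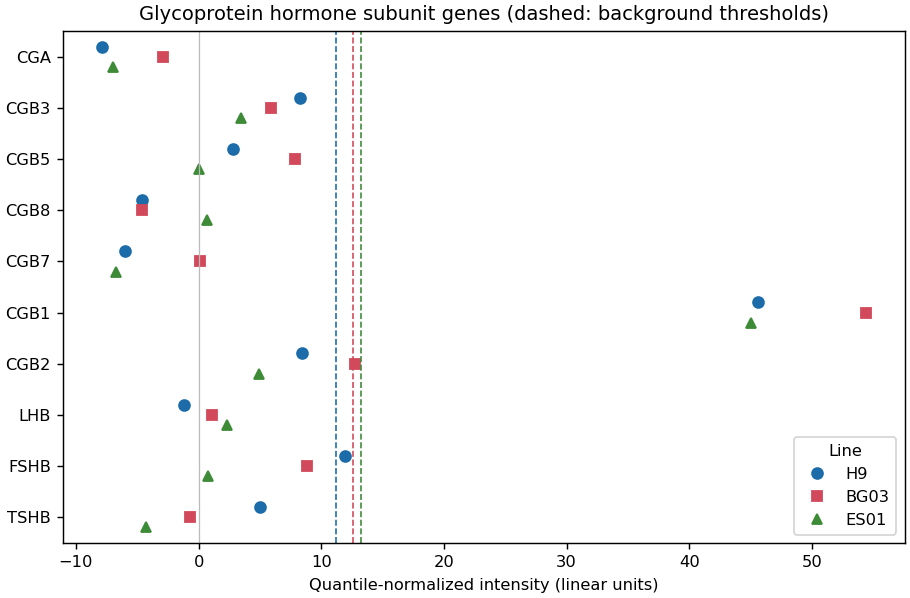
Quantile-normalized intensity (linear units) of the alpha subunit gene CGA, the CGB genes and LHB, FSHB and TSHB in H9 (circles), BG03 (squares) and ES01 (triangles), 1 array per line; dashed lines are the background thresholds. CGB1 lies at 45.1 to 54.4 units in the 3 lines, CGB2 in BG03 and FSHB in H9 lie at the threshold, and the others lie under it.

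The starts of CGA, CGB3 and CGB1 are shown because CGB1, the CGB gene with a probe above background in all lines, and CGB3, the CGB gene among the members, differ there. The sequences are the 250 bases before the gene start on the minus strand of GRCh38.p14, from RefSeq, 5′ to 3′. CGA is at chr6:87095107-87095356, CGB3 at chr19:49024334-49024583 and CGB1 at chr19:49036896-49037145. Capitals mark the motifs searched on both strands: the cyclic AMP response element TGACGTCA, the GATA motifs AGATAA and TGATAA, the AP-2 motif GCCNNNGGC, the TATA motif TATAAA and the TEAD motif GGAATG. None of the marked motifs overlap in these windows.
CGA: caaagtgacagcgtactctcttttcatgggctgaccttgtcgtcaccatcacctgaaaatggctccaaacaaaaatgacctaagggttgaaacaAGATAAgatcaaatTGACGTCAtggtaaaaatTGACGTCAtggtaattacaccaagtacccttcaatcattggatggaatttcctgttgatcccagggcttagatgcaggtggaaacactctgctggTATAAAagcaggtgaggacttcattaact
CGB3: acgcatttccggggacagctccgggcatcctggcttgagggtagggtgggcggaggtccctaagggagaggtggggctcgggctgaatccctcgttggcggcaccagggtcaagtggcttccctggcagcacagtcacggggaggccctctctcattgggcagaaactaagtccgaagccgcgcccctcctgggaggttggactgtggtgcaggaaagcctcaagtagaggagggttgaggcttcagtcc
CGB1: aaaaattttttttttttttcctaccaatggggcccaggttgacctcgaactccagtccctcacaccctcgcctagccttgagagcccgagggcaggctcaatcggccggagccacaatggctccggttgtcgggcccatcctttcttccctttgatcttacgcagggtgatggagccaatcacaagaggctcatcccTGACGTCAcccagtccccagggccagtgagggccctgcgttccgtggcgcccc
The CGA window held 2 response elements, starting 142 and 124 bases before the gene start, a GATA motif at 156 and a TATA motif at 29. The CGB1 window held 1 response element, at 53. The CGB3 window held none of the 5 motifs. Over 35116 such windows of human genes, 1.65% held the response element, 14.6% a GATA motif, 19.8% the AP-2 motif, 10.7% the TATA motif and 11.9% the TEAD motif. CGB2 also held 1 response element, 31 bases before its start, and CGB5 and CGB8 held none. In a global alignment the CGB1 window had 193 bases identical to CGB2 and 131 identical to CGB3, out of 250, whereas CGB3 and CGB5 shared 241. So CGB3, CGB5 and CGB8 have nearly the same start and CGB1 and CGB2 another. A match of letters shows no bound factor, and its relation to the intensities was not tested.

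In these windows the other members differed in base composition. RefSeq starts were found for 9 of the 10 members (16 starts); TFAP2C is named only. Over all windows the median was 11 CpG dinucleotides, with 1 and 31 at the 10th and 90th percentiles. HAND1 had 16 CpG and an AP-2 motif 72 bases before its start. The 6 GATA3 starts had 4 to 30 CpG, and 3 of them held an AP-2 motif. GATA2, which was not above background, held AP-2 motifs at both its starts (at 93 and 21, and at 151), and no start of the other members in the table held one. Among genes not above background, GCM1 had 1 CpG, ELF5 2 and CGA 4, while GATA2 had 18 and 24 at its 2 starts, TFAP2A 15 and 13, and CDX2 10. CpG-rich starts thus occurred both among members above background and among those under it.

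Relatives of the members in the same protein families were read next, 24 genes in all. Of these, 8 were above background in all lines (33.3%, beside 59.8% of all genes), 4 in 1 line and 12 in none. In the GATA family the endoderm factors GATA4 (68.7, 77.4 and 83.0) and GATA6 (292, 314 and 366) were above background, and GATA1 and GATA5 were in no line. In the AP-2 family TFAP2B, TFAP2D and TFAP2E were above background in no line, so that TFAP2C was alone among the 5 AP-2 genes. Among ETS relatives of ELF5, ELF1 (242.5, 206 and 215), ELF2 and ELF4 were above background in all lines. ELF4 was close to it, at 1.03, 1.26 and 1.05 times the threshold. The epithelial factor ELF3 also passed in all lines and was lowest in H9 (12.3, 32.6 and 39.5), 2.64-fold below BG03 and 3.20-fold below ES01. Its H9 value was 1.10 times the threshold, and bead error was not read for these relatives. EHF and GCM2 were not above background. CDX1, an intestinal and primitive streak relative of CDX2, was above background in ES01 alone (-3.40, 1.43 and 38.6), at least 3.44-fold over H9 and 3.07-fold over BG03 when the threshold stands in for the dim value. CDX4 was above the threshold in all lines (19.8, 12.6 and 14.5), in BG03 by the least. The intestinal list has 8 measured genes, CDX1 among them. Of the other 7, VIL1, CDH17, LGR5 and MUC2 were above background in no line, KRT20 and FABP2 passed in H9 only, and TFF3 passed in H9 and BG03 and was highest in H9 (34.8, 17.8 and 12.8).

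How the rest of the trophoblast programme stood was asked with 4 further lists, 72 measured genes of 78 listed. Of these, 26 were above background in every line (36.1%, beside 59.8% of all genes), 10 in 1 or 2 lines and 36 in none. The share was 57.1% for stem cell factors, 56.2% for fusion and surface proteins, 27.3% for differentiation factors and 19.4% for hormones, enzymes and secreted products.

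**Figure D3:**
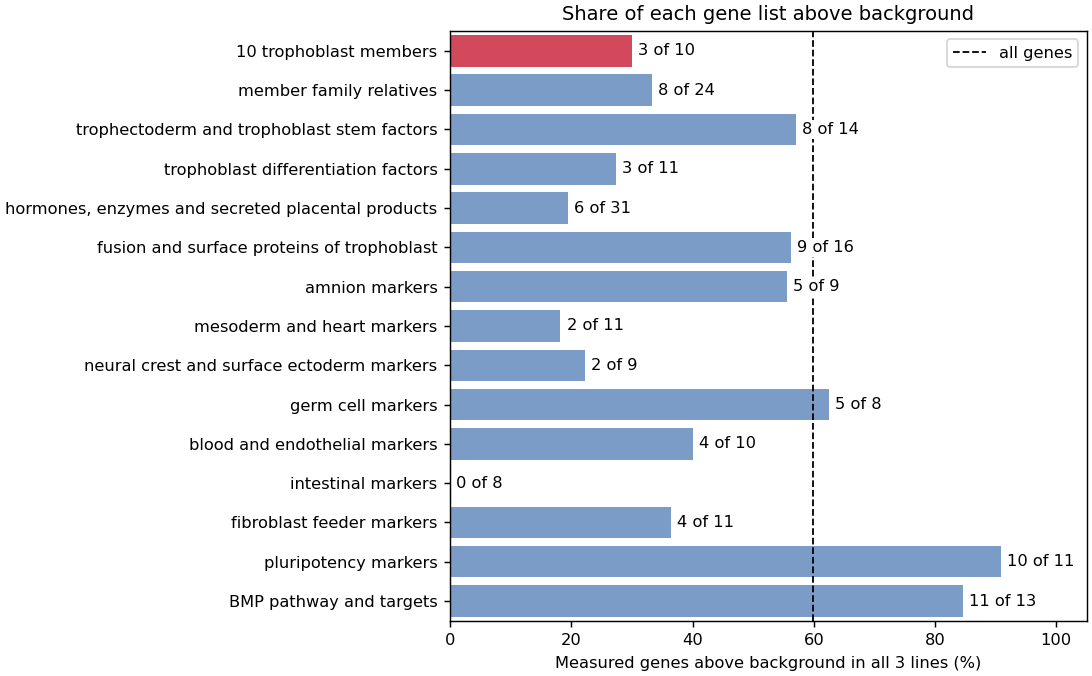
Bars give the percentage of measured genes of each list that were above background in all 3 lines, with the counts beside them; the dashed line is the share over all genes, 59.8%. The 10 members stand at 30.0%, the secreted placental products lowest among the trophoblast lists at 19.4% (6 of 31), and the pluripotency markers highest at 90.9% (10 of 11).

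Among factors of the trophectoderm and trophoblast stem cells, 8 of 14 were above background in all lines. TEAD4, the factor at the top of the mouse trophectoderm cascade, measured 1430, 2188 and 2032 (log2 SD 0.33), and its co-activator YAP1 1575, 1583 and 1521 (log2 SD 0.03). EOMES, a T-box factor of trophoblast stem cells and of definitive endoderm, measured 522, 393 and 467 (log2 SD 0.21). ARID3A, SKIL and ETS2 were above background in every line as well, and VGLL1 and ESRRB in none. The upstream factors TEAD4 and YAP1 were thus above background in all lines in which CDX2 was not. These are lists of genes with other roles too, and TEAD4 and YAP1 are expressed in many cell types.

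In this list 4 genes differed at least 2-fold between lines. KLF5, a Krüppel-like factor, was highest in ES01 (27.0, 23.6 and 76.7; 2.84-fold over H9 and 3.25-fold over BG03). GRHL2, an epithelial grainyhead factor, was above background only in BG03 (1.83, 32.3 and 10.6), at least 2.88-fold over H9 and 2.44-fold over ES01. ID2, an inhibitor of basic helix-loop-helix factors, was highest in H9 (616, 259 and 403.5), and TBX3 was not above background in BG03 (27.4, 8.43 and 20.7). These genes had no common high line.

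Of 11 differentiation factors 3 were above background in all lines: CEBPB (928, 713 and 668), HEY1 (159, 172 and 132) and MSX1 (23.1, 20.1 and 21.6). The placental factors PPARG, DLX3, DLX4, DLX5, OVOL1 and GRHL1 were above it in none, and no gene of this list differed 2-fold.

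Among 31 hormones, enzymes and secreted products, 23 were above background in no line. They include CSH2, CSHL1 and GH2 of the placental lactogen and growth hormone cluster, aromatase (CYP19A1, -8.77, -9.10 and -8.93), HSD3B1, KISS1, INSL4, PGF and CRH. Of 8 measured pregnancy-specific glycoprotein genes 7 were above background in no line, and PSG1 passed in ES01 only (-5.23, -8.57 and 16.5). ALPP, the placental alkaline phosphatase, was above background at nearly 1 level in all lines (170, 173 and 176, log2 SD 0.02), while ALPG, a near-identical copy, was not (7.47, 3.93 and 9.90). Which of these copies the ALPP probe reads was not checked. PAPPA, a protease of the placenta, was at 34.8, 29.4 and 34.7.

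Of this list 4 genes differed at least 2-fold, in different lines. GDF15, a stress-induced cytokine abundant in placenta, was lowest in H9 (31.6, 111 and 82.1; 3.52-fold lower than BG03 and 2.60-fold lower than ES01). TFPI2, a protease inhibitor, was highest in ES01 (162, 141 and 309). CYP11A1, the enzyme of the first step of steroid synthesis, was highest in H9 (40.8, 24.2 and 16.3), and ADAM12 was lowest in ES01 (31.6, 35.0 and 15.9). CYP11A1 and TFPI2 thus ran in opposite order between H9 and ES01. Across the 4 lists, 36 of 72 genes passed the threshold in 1 line or more. Of these 36, 8 differed at least 2-fold between some pair of lines. Of the 11004 genes that passed likewise in the whole set, 912 (8.29%) did, a smaller share than 8 of 36. The 8 became 6 where the mean of a gene's probes, or its probe of lowest mean, stood for it. TBX3 and ADAM12 have 3 probes each. The shares were not matched for intensity. The lists were chosen with earlier results known, so this difference in share was not tested. The median log2 difference of these 36 genes was 0.08 for BG03 minus H9, 0.07 for ES01 minus H9 and 0.07 for ES01 minus BG03, beside 0.03, 0.01 and -0.01 over all genes.

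**Figure D4:**
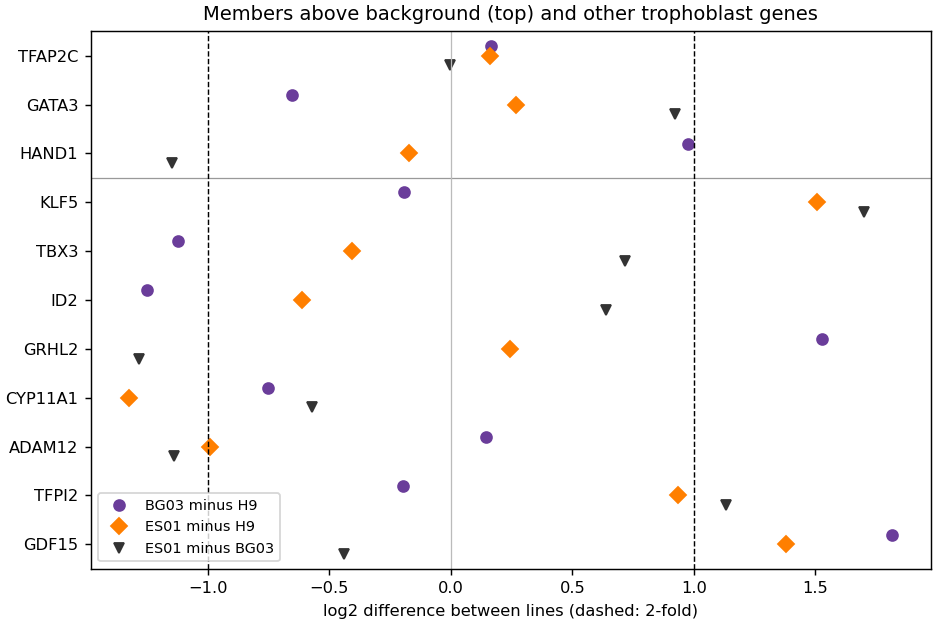
Log2 differences between lines (x axis; dashed lines mark 2-fold) for TFAP2C, GATA3 and HAND1 above the grey line and for the 8 other trophoblast genes that differed at least 2-fold below it, with 1 point per pair of lines. TFAP2C stays within 0.17, GATA3 reaches 0.92 and HAND1 -1.15 for ES01 minus BG03; a value under background stands at the threshold, so points of TBX3 and GRHL2 are bounds.

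Of 16 measured fusion and surface genes 9 were above background in all lines (56.2%, near the 59.8% of all genes), 4 in 1 or 2 lines and 3 in none. The simple keratins KRT8 (1533, 1753 and 1770), KRT18 (2437, 3116 and 3070) and KRT19 (2674, 2878 and 2114) were above it in all lines, whereas KRT7, the keratin used to mark trophoblast, passed in H9 only (13.2, 11.7 and 1.13). The amino acid transporter SLC1A5, the receptor of the fusion protein syncytin-1, measured 5046, 5427 and 5443. The syncytin-1 gene ERVW-1 itself just passed in H9 (12.1, 10.7 and 6.57). SDC1 (569, 447 and 511) and CDH3 (405, 388.5 and 417) were above background in all lines. HLA-G, the class I molecule of invasive trophoblast, passed in BG03 and in ES01 (4.43, 18.2 and 14.2), and ITGA1, HAVCR1 and KRT23 were in none. No gene of this list differed 2-fold.

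Lists of neighbouring lineages were read for the members that are not specific to trophoblast. The share above background in all lines was 55.6% for amnion markers and 62.5% for germ cell markers, near the 59.8% of all genes. It was 22.2% for neural crest and surface ectoderm markers and 40.0% for blood and endothelial markers. Of 9 amnion markers 5 were above background in all lines, ISL1 (27.7, 30.8 and 43.5), IGFBP3 (239, 255 and 377), IGFBP5, BAMBI and HEY1, while GABRP, VTCN1 and WNT6 were in none. For the AP-2 factors, 2 of 9 neural crest and surface ectoderm markers were above background in all lines, SOX10 (27.0, 16.1 and 20.6) and MSX1, and FOXD3, PAX7 and KRT5 were in none; PAX3 passed in 2 lines. Of 8 germ cell markers, among which TFAP2C has its other use, 5 were above background in all lines, PRDM1 (101, 77.9 and 146), PRDM14 (87.3, 64.9 and 92.6), SOX17, KIT and DPPA3. DDX4 was in none (-4.07, -5.93 and -4.73), DAZL passed in H9 and ES01 (13.8, 11.2 and 16.3) and DND1 in ES01 only. DPPA3 was higher in ES01 (26.4, 26.5 and 71.95), a 2.73-fold difference from H9 that TFAP2C did not share. For GATA2, 4 of 10 blood and endothelial markers were above background in all lines, LMO2 (17.4, 17.7 and 21.4), KLF1, TEK and HHEX, while TAL1, RUNX1 and GATA1 were in none.

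BMP signalling, the usual inducer of these genes in human ES cells, was read through 13 genes. Of these, 11 were above background in all lines (84.6%, beside 59.8% of all genes). The ligand BMP2 measured 118, 107 and 150, and BMP4 was above background in no line (1.53, -4.33 and -7.53). The target genes ID1 (908, 1155 and 694), ID3 (915, 813.5 and 805), SMAD7 (151, 280 and 289) and BAMBI (510, 617 and 624) were above background in all lines. BMPR2 was at 120, 102 and 99.2. The antagonist NOG passed in H9 only (17.2, 3.83 and -3.93). BMP2, SMAD1 (544, 499.9 and 725), ID2 and GATA3 were each lowest in BG03, whereas ID1, ID4 and SMAD5 were highest there. For BMP2, SMAD1 and SMAD5 the H9 and BG03 values lay only 1.10-fold, 1.09-fold and 1.045-fold apart, under the 1.12-fold of TFAP2C. For these 3 genes H9 and BG03 thus have no settled order. BMP2 and SMAD1 were highest in ES01 and ID2 in H9, while GATA3 had no settled order between H9 and ES01. Over 3 arrays these orders are a description, and a relation to GATA3 was not tested.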

How the data were processed

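Total RNA from 3 human ES cell lines was extracted with TRIzol and labelled with Cy3 for Illumina whole-genome arrays, per the labels' protocols. The authors deposited 1 intensity per probe and array on a linear scale with background already subtracted, as its values below 0 show. Not given in the sources used here are the software and the scaling of arrays. The deposited bead files hold 1 green intensity per bead and served for technical error only.

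All probes except 4 bacterial controls were brought to the same quantiles with limma 3.58.1, under R 4.3.3. Probes were named by gene ID: 18468 have 1 symbol, 0 several and 28825 none here, and 18451 matched the RefSeq table. Of several probes for a gene, that of highest mean intensity stood for it. Values under the array's threshold were set to it before log2 was taken; a fold resting on such a value is a bound. Genes above background in at least 1 line entered the 2-fold counts. Outlying beads (over 3 scaled median absolute deviations) were left out, and errors are medians over the bead types within 250 ranks of a member. Bead errors cover an array's technical error and not the background subtraction or differences between cultures. They were read for the members and CGB1 only, so calls of other listed genes close to the threshold were not checked against them. The number of arrays limits the precision of every difference.

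The members, lists and alternatives were chosen with earlier results of these data known. Text names all members, the first 3 measured genes of each list, every listed gene differing at least 2-fold, and the 3 genes nearest to the most variable member; other list genes were named after their values were seen. The counting was tested on simulated data. Bead summaries, counts and figures were made in Python 3.11.15 (matplotlib 3.10.9, scipy 1.17.1, pandas 2.3.3, numpy 2.4.6). Alternatives covered normalization, background threshold and set, probe rule, floor, fold threshold, filter and leaving out each line.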

Additional observations from a re-analysis of the deposited data

How the results depend on the processing

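TFAP2C and GATA3 were above background in all 3 lines under each alternative for the normalization, the background threshold and set and the probe rule. HAND1 was as well, except with the 99th percentile threshold, where it passed in BG03 alone; then 0 members differed 2-fold between BG03 and ES01 and 4 wider trophoblast genes did between any lines, in place of 8. With the 90th percentile, 5 members were above background in BG03 (GATA2 and ELF5 were added), CGB3 passed in H9, and 13 wider genes differed 2-fold. With the second background set GATA2 passed in BG03 and 11 wider genes differed 2-fold. With the mean of a gene's probes, or its probe of lowest mean, 6 wider genes did. At 1.5-fold, 2 members differed between H9 and BG03 and 2 between BG03 and ES01; at 3-fold, 0 members and 2 wider genes did. Leaving out each line in turn gave 3 to 4 wider genes with a 2-fold difference, which compares 1 pair in place of 3. Scaling the arrays to the same median put the median of all genes at -0.27 for ES01 minus H9 and -0.34 for ES01 minus BG03 (0.01 and -0.01 after quantile normalization). The share higher in ES01 among genes differing 2-fold then became 21.1% and 18.1%, and the TFAP2C differences -0.14 and -0.36 in place of 0.16 and 0.00. HAND1 kept its direction, at -0.49 and -1.44. No paired analysis was possible because the lines form 1 group.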

Other observations

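Genes of other lists that differed at least 2-fold were spread over the lines. In the germ cell list DND1, an RNA-binding protein of germ cells, was above background in ES01 alone (4.73, 0.80 and 59.1), at least 5.27-fold over H9. In the blood and endothelial list the angiopoietin receptor TEK was highest in ES01 (29.4, 48.1 and 162), and HHEX, a homeobox factor of early endoderm and blood, was highest in H9 (72.3, 46.7 and 31.4). TWIST1 (9.67, 24.5 and 45.4), COL1A1 (18.6, 22.0 and 43.2) and COL1A2 (310, 229 and 582) were highest in ES01 among fibroblast markers. Among pluripotency markers ZFP42 was highest in BG03 (364, 780 and 247), the line with the highest HAND1, and UTF1 in H9 (717, 307 and 342). These values have no replicate check.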
